A study of Mus musculus with 8 samples.

Results

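Mouse embryonic stem cells (ESCs) that lacked Tfap2c were compared with their parental cells on 4 of the 8 expression arrays of the series. The 4 arrays were chosen by their labels, 2 for control ESCs and 2 for knockout ESCs, and the other 4 hold primordial germ cell-like cells (PGCLCs) of the same genotypes. All of the cells carry Blimp1mVenus, a reporter of Prdm1. Control ESCs are Blimp1mVenus/Tfap2c flox/flox lines, so that they carry the floxed alleles as well. The Tfap2c-/- ESCs were made from them by transient transfection with a pGK-Cre plasmid. The study established 2 parental lines and 1 knockout line from each, and whether a knockout line is a single clone was not given in the sources used here. The labels number the samples 1 and 2 without tying a number to a line. The titles call the samples replicates, and the study names RNA of both lines of each genotype for the arrays. A group is thus taken here as 2 lines. Each knockout line has its own parental line, but the main fit does not use this pairing. The spread within groups therefore includes differences between lines. The p-values rest on the spread within groups, pooled over the 4 groups of ESCs and PGCLCs.

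TFAP2C (AP-2 gamma) is a transcription factor of the AP-2 family, whose members bind GC-rich palindromes through a conserved domain at the end of the protein. It acts in trophoblast, in mammary gland and in primordial germ cells, where it works downstream of BLIMP1 and PRDM14. ESCs are the cells from which PGCLCs are made in culture. The comparison of knockout with control ESCs asks which differences exist before germ cell fate is induced.

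The deposited values are log2 expression levels, in which a difference of 1 is a doubling, and a gene was read from its brightest probe set over all 8 arrays, out of those that name only that gene. This gave 18193 genes. The medians of the arrays lay between 3.47 and 3.55. Values at or under them are close to background, so that folds there are uncertain. Knockout array 2 stood apart. Over 45037 probe sets its correlation was 0.979 with control array 2, 0.980 with knockout array 1 and 0.988 with control array 1. These 3 arrays correlated with each other at 0.989 to 0.992, the lowest being that of the 2 controls. Its control probe set at the 5′ end of 18S ribosomal RNA read 9.06, against 11.68 to 11.93 on the other ESC arrays and 10.10 to 10.59 on the PGCLC arrays. The excess of the 3′ over the 5′ control probe set of Gapdh was 0.39 on this array and 0.31 to 0.38 on the other ESC arrays. Because of this array, genes are given by their value on every array, and a difference without array 2 is that of knockout array 1 against the control mean.

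Tfap2c read 7.88 and 9.14 in control ESCs and 7.28 and 6.47 in knockout ESCs. Both knockout arrays lay below both controls, but the gap was 0.60 and the controls lay 1.25 apart. Control ESCs had a mean of 8.51 ± 0.89 and Tfap2c-/- ESCs of 6.88 ± 0.57 (SD, n = 2 for each), and the gene did not pass limma. The log2 difference was −1.63 (SE 0.42, 95% interval −2.61 to −0.65, limma, unadjusted p = 0.00512). All 3 probe sets of Tfap2c gave the same order of the arrays, with differences of −1.63, −1.56 and −1.52. Which exons these probe sets cover, and whether Cre removes them, was not given in the sources used here. These values therefore do not test the deletion. The study examined it by other means, with genotyping PCR of the ESC lines and immunofluorescence staining of TFAP2C. Of the other AP-2 genes, Tfap2a, a factor of neural crest and surface ectoderm, read 5.02 and 4.52 in controls and 4.61 and 5.77 in the knockout, and the groups overlapped. Tfap2b, Tfap2d and Tfap2e read between 1.94 and 2.59 on all 4 arrays, below the array medians.

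By limma, fitted to all 8 arrays with Benjamini-Hochberg adjustment over 18193 genes, 0 genes passed at an adjusted p under 0.05 (0% of the genes). An unadjusted p under 0.05 was found for 455 genes (2.50%). The smallest adjusted p was 0.263 for Rhox5, followed by 0.574 for Pnma5, and the third smallest was 1.0. The 95% interval of the difference lay wholly within 1 log2 unit of 0 for 16302 genes (89.6%), and for 6140 of the 6699 genes with a mean level of at least 6 (91.7%). Its median half-width was 0.43 over all genes. With 2 arrays a group an exact permutation test of a single gene cannot go below p = 0.333.

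The study's fold rule, under which the means must lie more than 1.5 log2 units apart, was passed by 24 genes (0.132% of the genes), 22 lower (0.121%) and 2 higher (0.0110%). The rule uses no test, and these genes were chosen by the difference itself. Tfap2c, the targeted gene, is among the 22 lower genes. In 20 of the lower genes (0.110% of all genes) and 1 of the higher genes (0.00550%) both knockout arrays lay beyond both controls, and 3 genes overlapped. Without regard to size, the groups did not overlap in 4138 genes (22.7%), 1998 lower and 2140 higher. Knockout array 2 was farther from the control mean than knockout array 1 in 22 of the 24 genes. Both knockout arrays were more than 1.5 from the control mean in 11 genes, array 2 alone in 12 and array 1 alone in 1. Of the 24 genes, 9 had a mean level under 5 over the 8 arrays. Dsp (−1.52), Gm21283 (−1.53) and Arhgap30 (−1.56) were the genes just inside the threshold. Just outside it were the Y-linked Eif2s3y (1.49), Ufsp2 (−1.44) and Timm8a2 (−1.38).

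**Figure D1:**
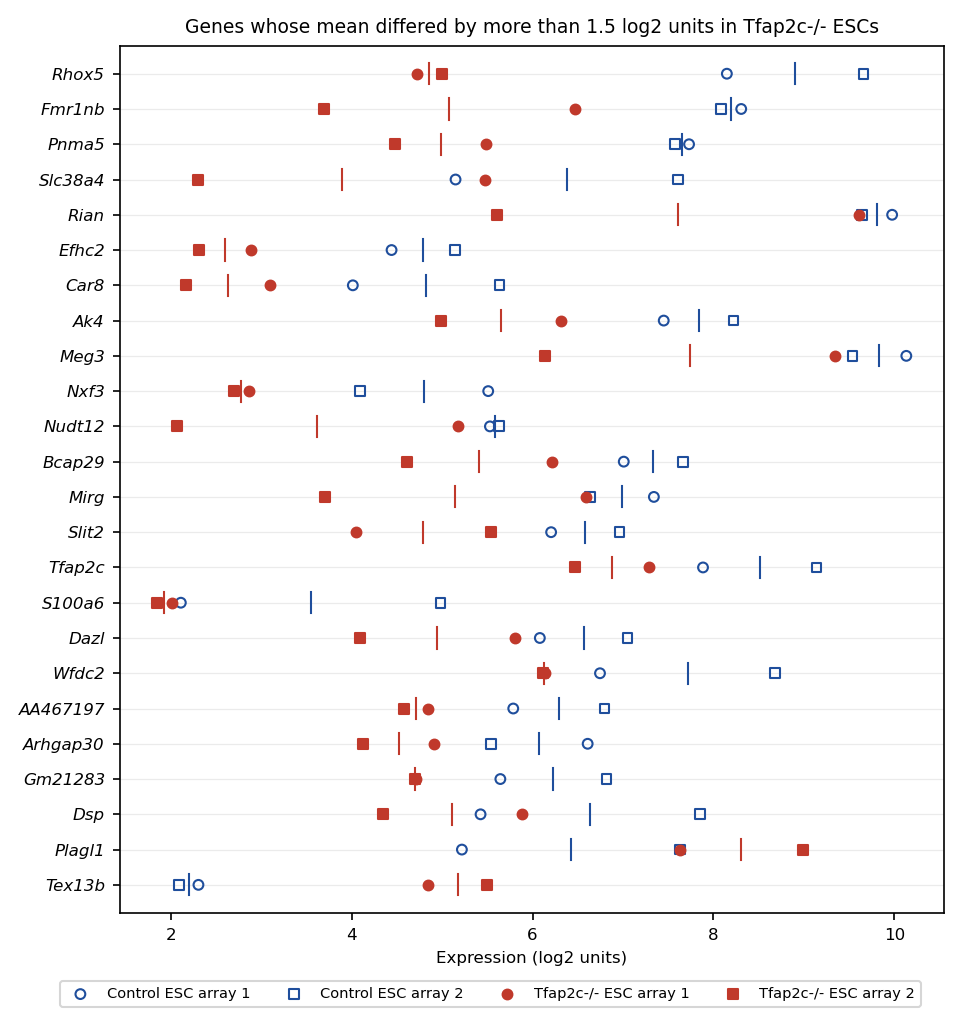
Expression (log2 units, horizontal axis) of the 24 genes past the fold rule on each of the 4 ESC arrays, blue open symbols for controls and red filled symbols for Tfap2c-/- ESCs, circles for array 1 and squares for array 2, with a vertical bar at the mean of each group of 2. Rhox5 lies at 4.72 and 5.0 in the knockout and at 8.15 and 9.66 in controls, while Rian, Meg3 and Mirg are low on knockout array 2 and near the controls on array 1.

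Genes of the X chromosome that are known for expression in testis or early germ cells held the lowest and the highest difference of all genes. On the chromosomes of the RefSeq annotation (GRCm38.p6), 6 of the 24 genes lay on the X chromosome, which holds 3.42% of the genes with a chromosome, and 4 lay on chromosome 12, which holds 3.45%. Of those on chromosome 12, Rian, Meg3 and Mirg are transcripts of the same imprinted region, low on knockout array 2 alone. Rhox5, a reproductive homeobox gene that is also transcribed in ESCs, read 8.15 and 9.66 in controls and 4.72 and 5.0 in the knockout. Both knockout arrays were low, and the gap of 3.15 to the controls was the widest of the 24 genes. The log2 difference was −4.05 (SE 0.42, 95% interval −5.02 to −3.07), −4.18 on knockout array 1 and −3.91 on knockout array 2. It was −4.80 without control array 1 and −3.29 without control array 2 (limma, adjusted p = 0.00373 and 0.0466), while without knockout array 1 or 2 the adjusted p was 0.309 and 0.887. Each of these fits leaves 1 array in a group, which is assumed to vary like the other groups.

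Pnma5, of the paraneoplastic Ma antigen family, read 7.73 and 7.58 in controls and 5.49 and 4.48 in the knockout, a log2 difference of −2.67 (SE 0.34, 95% interval −3.46 to −1.88). Both knockout arrays were low, without overlap. Fmr1nb, a cancer/testis antigen gene, read 8.31 and 8.08 in controls and 6.47 and 3.69 in the knockout. Array 2 was the lower of the knockout pair by 2.77, and the difference of −3.11 was −1.73 without it. Efhc2, an EF-hand protein gene, read 4.44 and 5.14 in controls and 2.89 and 2.31 in the knockout, and Nxf3, a nuclear RNA export gene of testis, read 5.51 and 4.10 in controls and 2.86 and 2.69 in the knockout. In both genes the knockout arrays lay below the array medians, and the difference of Nxf3 was −1.32 without control array 1.

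Tex13b, a testis-expressed gene, went the other way. It read 2.31 and 2.09 in controls, below the array medians, and 4.85 and 5.50 in the knockout, a log2 difference of 2.98 (SE 0.73, 95% interval 1.29 to 4.66). It was high on both knockout arrays, and its other probe set gave 0.72. Of the 20 measured genes on a list of 37 X-linked testis genes and Xlr genes, 14 were lower and 6 higher in the mean, 0 passed limma, and 3 were past the fold rule downward and 1 upward. The list median was −0.10, against −0.001 over all genes, and the median level of the members was 2.44 to 2.67 on the 4 arrays, below the array medians. Mageb16, a MAGE family gene at the level of the stem cell genes, read 9.17 and 9.29 in controls and 8.82 and 8.93 in the knockout.

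Of the Rhox genes, a cluster of homeobox genes on the X chromosome expressed in reproductive tissue, 4 of the 15 listed were measured, and all 4 were lower in the mean. Beside Rhox5 these were Rhox13, at 5.34 and 4.16 in controls and 4.37 and 2.71 in the knockout, Rhox6, at 3.79 and 4.07 against 3.43 and 2.71, and Rhox9, at 3.64 and 3.40 against 3.10 and 2.70. The groups of Rhox13 overlapped. Rhox6 and Rhox9 lay near the array medians in both genotypes, with differences of −0.86 and −0.62. Over the other X-linked genes no shift was seen, since the 220 genes of the X chromosome with a mean level of at least 6 had a median difference of −0.02. The median differences of the chromosomes with at least 20 such genes lay between −0.06 and 0.03. On knockout array 2 alone the chromosome medians lay between −0.10 and 0.04.

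The RefSeq promoter table (build GRCm38.p6) held 19 of the 24 genes, and the 250 bases before the start of these genes were searched for GCCNNNGGC, the palindrome bound by AP-2 factors, which reads the same on both strands. It was found for 4 of the 19 genes (Dsp, Meg3, Plagl1 and Slit2), for Meg3 before 1 of its 2 starts. It stood before at least 1 start in 15.4% of all 27025 genes with a promoter given, and in 13.7% of all 32851 promoters. The promoters of the 2 genes with the smallest adjusted p, neither with the motif, and of 2 genes with it are shown, with the motif in capitals, Rhox5 at chrX:37754358-37754607 (plus strand), Pnma5 at chrX:73037104-73037353 (minus strand), Slit2 at chr5:47982905-47983154 (plus strand) and Plagl1 at chr10:13090582-13090831 (plus strand).
Rhox5: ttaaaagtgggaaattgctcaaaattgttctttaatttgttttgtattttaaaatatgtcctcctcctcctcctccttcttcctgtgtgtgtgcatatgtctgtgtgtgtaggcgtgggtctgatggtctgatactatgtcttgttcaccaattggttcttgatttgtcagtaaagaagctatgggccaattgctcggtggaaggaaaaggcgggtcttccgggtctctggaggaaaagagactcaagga
Pnma5: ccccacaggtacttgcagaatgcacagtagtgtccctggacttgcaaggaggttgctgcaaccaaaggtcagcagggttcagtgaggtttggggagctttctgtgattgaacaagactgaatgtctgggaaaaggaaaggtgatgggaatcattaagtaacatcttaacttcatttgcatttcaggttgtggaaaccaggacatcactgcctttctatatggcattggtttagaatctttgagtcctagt
Slit2: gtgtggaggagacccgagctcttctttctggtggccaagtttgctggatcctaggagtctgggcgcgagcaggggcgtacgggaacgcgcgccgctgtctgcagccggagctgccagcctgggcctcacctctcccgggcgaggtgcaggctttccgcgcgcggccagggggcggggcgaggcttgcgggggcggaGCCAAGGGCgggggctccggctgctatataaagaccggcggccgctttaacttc
Plagl1: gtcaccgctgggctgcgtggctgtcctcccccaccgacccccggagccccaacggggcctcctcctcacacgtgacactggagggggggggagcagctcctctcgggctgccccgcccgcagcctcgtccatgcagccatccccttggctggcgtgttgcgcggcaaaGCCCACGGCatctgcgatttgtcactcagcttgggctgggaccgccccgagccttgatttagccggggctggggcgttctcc
The number of CG pairs in these windows was 4 for Rhox5, 0 for Pnma5, 25 for Slit2 and 19 for Plagl1, with a median of 6 over all promoters of the table.

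The noncoding RNAs of the imprinted Dlk1-Dio3 region on chromosome 12, which are made from the maternal allele, were low on knockout array 2 alone. Rian read 9.98 and 9.64 in controls and 9.61 and 5.61 in the knockout. Meg3 read 10.13 and 9.54 in controls and 9.34 and 6.14 in the knockout, and Mirg read 7.34 and 6.64 in controls and 6.59 and 3.70 in the knockout. On knockout array 1 all 3 lay within 0.50 of the control mean, and on array 2 they were 3.29 to 4.2 below it, so that the differences of −2.20, −2.10 and −1.84 rest on that array. The 11 probe sets of Meg3 gave differences from −2.49 to −0.06, and the 4 of Rian from −2.20 to −1.13. Of the 6 listed genes of the region 4 were measured, 3 lower and 1 higher, 0 past limma, with a median of −1.97 that was −0.30 on knockout array 1. Dlk1, a protein-coding gene of the paternal allele, read 2.74 and 2.59 in controls and 3.41 and 3.46 in the knockout, all close to the array medians. In PGCLCs Rian was likewise low in the knockout sample numbered 2, at 2.99, against 10.51 in knockout sample 1 and 8.63 and 7.86 in controls.

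Slc38a4, an imprinted amino acid transporter gene, read 5.15 and 7.61 in controls and 5.47 and 2.30 in the knockout, and the groups overlapped. Plagl1, an imprinted zinc finger transcription factor gene, read 5.22 and 7.63 in controls and 7.63 and 8.99 in the knockout, again with overlap. The difference of Plagl1 was 1.88 on this probe set, which is liable to cross-hybridize, and 0.26 and 0.59 on its other 2 probe sets. Grb10, an imprinted adaptor protein gene, separated a control array instead, at 4.31 and 9.02 in controls and 8.33 and 7.64 in the knockout. Of 30 other imprinted genes 27 were measured, 13 lower and 14 higher in the mean, 0 past limma, with a median difference of 0.01 that was −0.07 on knockout array 1 and −0.06 on array 2. The lower and higher members past the fold rule were Slc38a4 and Plagl1.

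Germline genes whose promoters are methylated and silent in somatic cells were low on knockout array 2. In cultures of mixed state, fewer cells that transcribe a gene and less RNA per cell cannot be told apart. Of 25 on the list 22 were measured, 17 lower and 5 higher in the mean, with 0 past limma and a median difference of −0.50. The median was −0.07 on knockout array 1 and −0.66 on array 2. Array 2 was the lowest of the 4 ESC arrays for 14 of the 22 genes (63.6%), against 34.7% of all genes. Dazl, an RNA-binding protein gene of germ cells, read 6.08 and 7.05 in controls and 5.80 and 4.09 in the knockout. Hormad1, a meiotic chromosome axis gene, read 4.30 and 4.86 in controls and 3.74 and 2.69 in the knockout, and Stk31, a testis kinase gene, read 5.12 and 5.52 in controls and 4.84 and 3.33. In these 3 genes both knockout arrays lay below both controls, by gaps of 0.28, 0.56 and 0.27.

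Other members were at the level of the controls on knockout array 1. Sycp3, of the synaptonemal complex, read 4.82 and 6.93 in controls and 6.35 and 3.01 in the knockout. Ddx4, the vasa helicase gene, read 5.24 and 6.17 in controls and 5.66 and 3.38 in the knockout, and Mael, a gene of transposon silencing in germ cells, read 3.85 and 5.09 in controls and 5.09 and 1.80. In each the groups overlapped and array 2 was the lowest. Tex13b, described above, is also on this list.

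Genes of the hypoxia response, many of them enzymes and transporters of glycolysis, followed the same array. Of 17 measured genes 16 were lower and 1 higher in the mean (50.4% of all genes were lower), 0 passed limma and the median difference was −0.26. On knockout array 1 the median was 0.16, and on knockout array 2 it was −0.66. Array 2 was the lowest of the 4 ESC arrays for 14 of the 17 genes (82.4%). Bnip3, a mitophagy receptor gene, read 8.95 and 8.73 in controls and 9.61 and 6.56 in the knockout, so that array 1 was the highest and array 2 the lowest. Ldha, the lactate dehydrogenase gene, read 10.50 and 10.09 in controls and 10.79 and 8.51 in the knockout, in the same order. Vegfa, the angiogenic growth factor gene, read 5.28 and 6.04 in controls and 5.99 and 3.81 in the knockout.

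Ddit4, an inhibitor of mTOR signalling, read 7.70 and 9.25 in controls and 8.80 and 6.27 in the knockout, and Egln3, an oxygen-sensing prolyl hydroxylase gene, read 6.30 and 6.04 in controls and 6.33 and 4.46 in the knockout. Not all members did so. Slc2a3, a glucose transporter gene, read 11.70 to 11.92 on the 4 arrays. Ak4, the mitochondrial adenylate kinase gene, was the member whose knockout arrays both lay below the controls by more than 1, at 7.45 and 8.22 in controls and 6.31 and 4.98 in the knockout, a log2 difference of −2.19 (SE 0.50, 95% interval −3.35 to −1.03) and −1.52 without array 2. The 5 probe sets of Ak4 gave differences from −2.29 to −0.01. Knockout array 2 is also the array with the low 18S values, whose part in these differences was not tested.

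**Figure D2:**
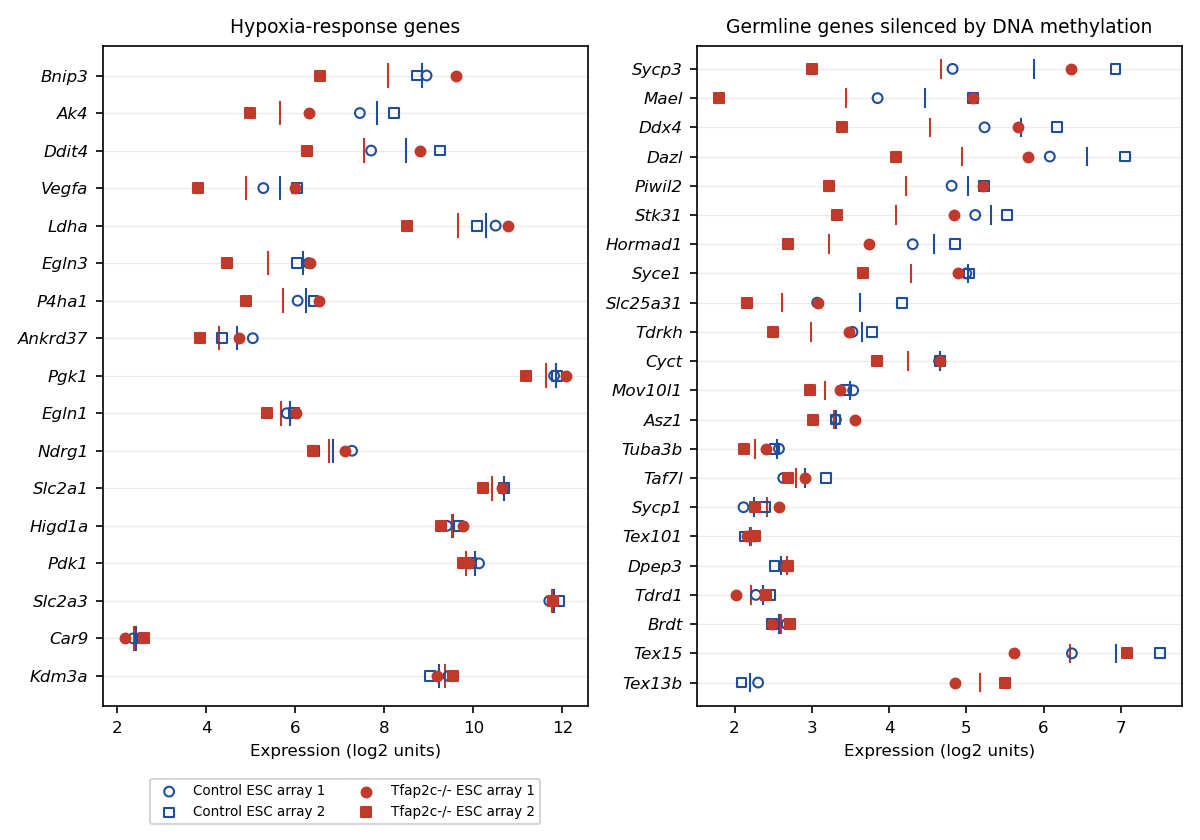
Expression (log2 units, horizontal axis) on the 4 ESC arrays of 17 hypoxia-response genes and 22 germline genes silenced by DNA methylation, ordered by how far knockout array 2 lies below the mean of the other 3 arrays, with symbols as in the plot of genes past the fold rule and a vertical bar at each group's mean. Red squares, knockout array 2, lie to the left of the other symbols in the upper part of both panels, as for Bnip3 (6.56 against 8.73 to 9.61) and Sycp3 (3.01 against 4.82 to 6.93).

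The 2 knockout arrays differed by more than 1.5 in 183 genes (1.01%), of which 127 (0.698%) were lower and 56 (0.308%) higher on array 2. The control arrays differed by as much in 93 genes (0.511%), 30 lower (0.165%) and 63 higher (0.346%) on array 2. Each knockout array was also set against the control mean without regard to the other. Array 1 was more than 1.5 lower in 14 genes (0.0770%) and higher in 7 (0.0385%). Array 2 was beyond 1.5 in 121 (0.665%), lower in 92 (0.506%) and higher in 29 (0.159%). These counts include the genes in which both knockout arrays were beyond 1.5, 10 lower (0.0550%) and 1 higher (0.00550%).

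Among genes whose controls lay within 0.5 of each other, those lowest on knockout array 2 against array 1 were Ctbs, Rian, Nudt12, Bnip3 and Ufsp2. Ctbs, a lysosomal chitobiase gene, read 5.10 and 5.32 in controls and 6.35 and 2.31 in the knockout, and Nudt12, an NADH pyrophosphatase gene, read 5.53 and 5.63 in controls and 5.17 and 2.07. Ufsp2, a protease gene of the UFM1 pathway, read 6.82 and 6.81 in controls and 6.86 and 3.89 in the knockout. In these 3 genes knockout array 1 lay within 1.15 of the control mean and array 2 was 2.91 to 3.51 below it. Those highest on array 2 against array 1 were Insyn2a (3.44 and 5.90 in the knockout, 4.65 and 4.25 in controls), Epp13 (6.68 and 9.09, against 7.63 and 7.41), 4930456A14Rik (2.92 and 4.82, against 3.71 and 3.51), the noncoding RNA Dancr (6.84 and 8.66, against 7.39 and 7.15) and Tmem40 (5.52 and 7.30, against 7.03 and 7.32). In all 5 knockout array 1 was the lowest of the ESC arrays.

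**Figure D3:**
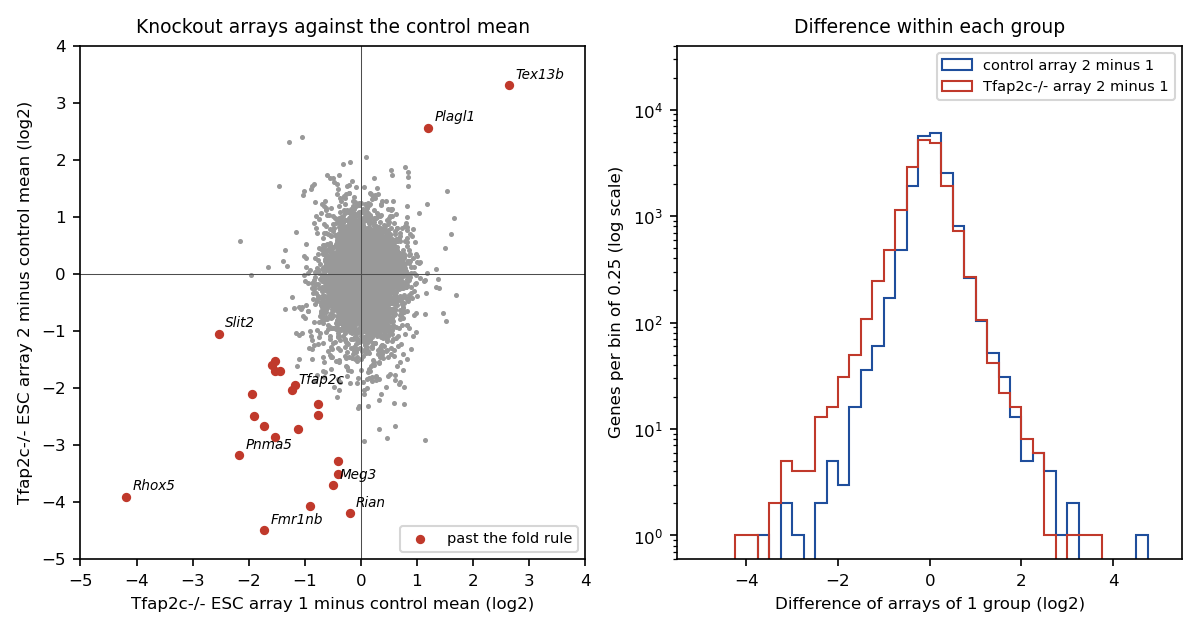
Left, log2 difference of each knockout array from the control mean for 18193 genes (array 1 on the horizontal and array 2 on the vertical axis), with the 24 genes past the fold rule in red. Right, number of genes (log scale) by the log2 difference between array 2 and array 1 of the same group. The cloud is taller than wide, with 121 genes beyond 1.5 on array 2 and 21 on array 1, and the knockout curve has the heavier lower tail.

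The genes of stem cell identity lay at close levels in both genotypes. Of 10 core pluripotency genes, all had a mean level of at least 6, 5 were lower and 5 higher in the mean, and the 95% interval of the difference lay within 1 log2 unit of 0 for all 10. Pou5f1 (Oct4) read 11.18 and 11.14 in controls and 11.20 and 11.32 in the knockout, a difference of 0.10 (SE 0.09, 95% interval −0.11 to 0.30). Nanog read 10.57 and 10.60 in controls and 10.58 and 10.55 in the knockout, a difference of −0.02 (SE 0.11, 95% interval −0.27 to 0.23). Sox2 read 11.19 and 11.11 in controls and 11 and 11.19 in the knockout. The widest difference of the list was that of Dppa2, a chromatin-associated factor gene of the early embryo, at 9.21 and 9.40 in controls and 9.32 and 8.82 in the knockout (−0.23).

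Of 16 naive pluripotency genes 8 were lower and 8 higher, the median difference was 0.02, and the interval lay within 1 of 0 for 14. The 2 exceptions were Dppa3 (Stella), a maternal and germ cell factor that varies between ESCs, at 5.27 and 7.88 in controls and 4.62 and 6.55 in the knockout, and Eras, an ESC-expressed Ras gene, at 6.70 and 7.44 in controls and 7.24 and 6.57. The groups overlapped in both. Prdm14, a regulator of germ cell specification and of the naive state, read 7.63 in both controls and 7.63 and 7.71 in the knockout. Klf4, a naive factor, read 11.03 and 10.98 in controls and 10.87 and 11.11 in the knockout, against 6.65 to 9.48 on the PGCLC arrays, and Dppa5a, an RNA-binding protein gene of ESCs, read 13.23 to 13.34.

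Of 14 primed epiblast genes 3 were lower and 11 higher, with 0 past limma, a median difference of 0.20 and medians of 0.20 on knockout array 1 and 0.41 on array 2. The control arrays differed by −0.38 in the median of the list, array 2 being lower, and the median difference of 0.20 was 0.064 without control array 2. Lefty1, an inhibitor of Nodal signalling, read 8.25 and 7.48 in controls and 8.78 and 8.53 in the knockout, a difference of 0.79 (SE 0.23, 95% interval 0.25 to 1.33, limma, unadjusted p = 0.0103) that was 0.40 without control array 2. Lefty2, of the same function, read 8.58 and 8.24 in controls and 8.62 and 9.72 in the knockout. Zic2, a zinc finger gene of neural development, read 7.49 and 6.27 in controls and 7.38 and 7.86 in the knockout, with overlap, and Sfrp2, a WNT antagonist gene, read 3.30 and 3.80 in controls and 4.01 and 4.10. Fgf5, a defining marker of the primed epiblast, lay between 1.78 and 2.22 on all 4 arrays.

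**Figure D4:**
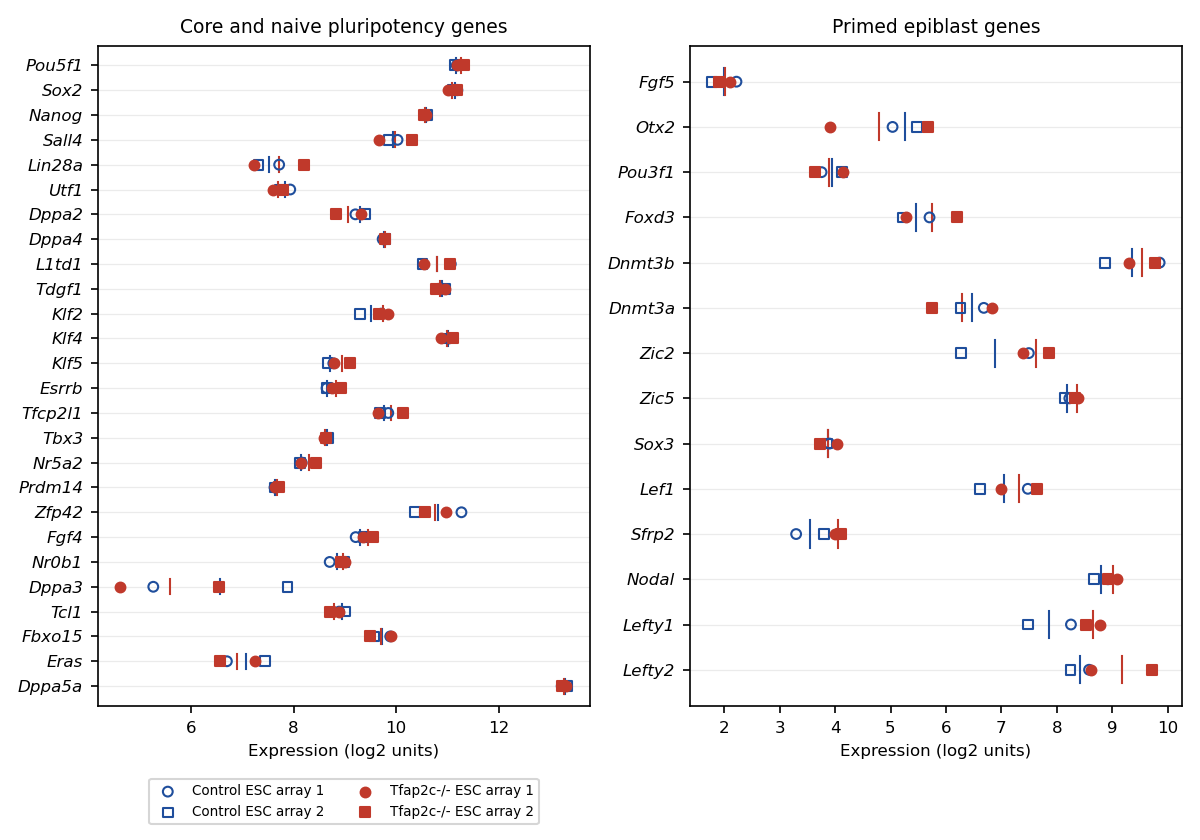
Expression (log2 units, horizontal axis) on the 4 ESC arrays of 26 core and naive pluripotency genes and 14 primed epiblast genes, with symbols as in the plot of genes past the fold rule and a vertical bar at each group's mean of 2 arrays. Pou5f1, Sox2 and Nanog lie between 10.55 and 11.32 on every array, Dppa3 is spread from 4.62 to 7.88 with overlap of the groups, and Fgf5 stays at or below 2.22.

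Enzymes that write, keep or remove DNA methylation were mostly at like levels. Of 14 listed genes 13 were measured, 4 lower and 9 higher in the mean, with 0 past limma, and the interval lay within 1 of 0 for 11. Dnmt3l, a cofactor of de novo methylation, read 5.99 and 5.64 in controls and 6.70 and 6.5 in the knockout, and the knockout arrays lay above the controls by 0.52 (difference 0.79, SE 0.71, 95% interval −0.86 to 2.43). Dnmt3a, a de novo methyltransferase gene, read 6.68 and 6.26 in controls and 6.84 and 5.75 in the knockout. Dnmt3b, the other, read 9.85 and 8.87 in controls and 9.30 and 9.78. The maintenance genes Dnmt1 (9.70 to 9.90) and Uhrf1 (10.12 to 10.60) and the dioxygenase gene Tet1 (9.77 to 10.31) were high on all 4 arrays. Tet2, a dioxygenase gene as well, read 7.48 and 7.92 in controls and 7.53 and 7.16 in the knockout.

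Early germ cell genes showed no common direction. Of 12 listed 11 were measured, 5 lower and 6 higher, 0 past limma, with a median difference of 0.04. Prdm1, which encodes BLIMP1 and whose sequences also drive the reporter, read 7.08 and 6.84 in controls and 7.01 and 5.80 in the knockout, and Dmrt1, a germ cell transcription factor gene, read 6.5 and 8.01 in controls and 7.30 and 5.36. Both were lowest on knockout array 2 and near the controls on array 1. Genes bound by TFAP2C in PGCLCs form a list that was drawn up after the PGCLC arrays, and 9 of its 10 genes were measured. In ESCs 3 were lower and 6 higher, 0 passed limma, and the median difference was 0.18. Sfrp1, a WNT antagonist gene, read 7.47 and 7.24 in controls and 7.59 and 8.31 in the knockout, and Cdk6, a cyclin-dependent kinase gene, read 7.84 and 6.63 in controls and 7.19 and 8.28.

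Genes of the G1 phase gave a median difference of −0.02 over 17 genes, 9 lower and 8 higher, 0 past limma. Cdkn2a, which encodes the tumour suppressors INK4A and ARF, read 7.06 and 7.58 in controls and 6.43 and 6.24 in the knockout, without overlap (difference −0.99, SE 0.27, 95% interval −1.61 to −0.37). Ccnd3, a D-type cyclin gene, read 7.38 and 7.58 in controls and 6.92 and 7.0 in the knockout, also without overlap. Ccnd1, of the same family, read 9.38 and 8.43 in controls and 9.04 and 9.73 in the knockout.

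Of 17 axon guidance genes 9 were lower and 8 higher, 0 past limma, with a median of −0.07. Slit2, a secreted ligand of ROBO receptors, read 6.20 and 6.96 in controls and 4.05 and 5.54 in the knockout, and it was the 1 gene past the fold rule whose array 1 alone was beyond 1.5. The difference was −1.79 (SE 0.52, 95% interval −3.00 to −0.58), −2.53 on knockout array 1 and −1.05 on array 2, and its 3 probe sets gave −1.79 to −0.42. Ntn1, which encodes the guidance cue netrin 1, read 8.42 and 8.16 in controls and 8.78 and 9.15 in the knockout, without overlap. Epha4, an ephrin receptor gene, read 7.42 and 4.98 in controls and 6.75 and 7.31 in the knockout, and there the low array was a control.

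Genes of epithelial junctions and keratins had a median difference of −0.29 (0.02 on knockout array 1 and −0.43 on array 2) over 11 genes, 8 lower and 3 higher, 0 past limma. Dsp, which encodes the desmosome protein desmoplakin, read 5.42 and 7.85 in controls and 5.88 and 4.35 in the knockout, with overlap, and its 3 probe sets gave −1.83 to −0.11. The adhesion gene Cdh1 (E-cadherin) read 10.42 to 10.65 on the 4 arrays. Of 12 S100 and annexin genes, which encode calcium-binding proteins, 11 were measured, 9 lower and 2 higher, 0 past limma, with medians of 0.02 on knockout array 1 and −0.61 on array 2. S100a6 read 2.11 and 4.98 in controls and 2.01 and 1.85 in the knockout, so that its difference of −1.62 rests on control array 2 and was −0.18 without it.

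Of the remaining genes past the fold rule, 6 were lower without overlap on both knockout arrays. Bcap29, an endoplasmic reticulum membrane protein gene, read 7.01 and 7.66 in controls and 6.21 and 4.61 in the knockout, and Wfdc2, a secreted protease inhibitor-like gene, read 6.74 and 8.68 in controls and 6.14 and 6.11. AA467197 read 5.79 and 6.8 in controls and 4.85 and 4.58 in the knockout. Car8, a carbonic anhydrase-related gene, read 4.01 and 5.64 in controls and 3.10 and 2.16 in the knockout. Arhgap30, a GTPase-activating protein gene, read 6.61 and 5.54 in controls and 4.91 and 4.13, and the predicted gene Gm21283 read 5.64 and 6.82 in controls and 4.71 and 4.70. In all of these but Bcap29 the controls lay farther apart, by 1.01 to 1.94, than the gap of 0.61 to 0.94 between the groups. The 3 probe sets of Car8 gave differences from −2.19 to 0.06, and the 3 of Arhgap30 from −1.56 to 0.02.

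The 5 genes each way with the smallest limma p without overlap were chosen by that p. Those other than Rhox5 and Pnma5 differed by at most 1.38 in size. Larger differences stood further down this ranking, as for Efhc2 (−2.19, limma, unadjusted p = 0.00195). Timm8a2, related to a chaperone gene of mitochondrial import, read 4.23 and 3.87 in controls and 2.92 and 2.43 in the knockout. Pdha2, the testis form of a pyruvate dehydrogenase subunit, read 3.21 and 3.12 in controls and 2.17 and 2.38 in the knockout. Hspa4l, a heat shock protein gene, read 3.51 and 3.68 in controls and 2.65 and 2.94 in the knockout. Pdha2 lay below the array medians on all 4 arrays, and Timm8a2 and Hspa4l did so in the knockout. The higher genes were Mthfd2l, of mitochondrial folate metabolism (4.78 and 4.49 in controls, 5.68 and 5.70 in the knockout), and Frem2, an extracellular matrix gene (5.09 and 5.09, against 6.02 and 5.88). Cxcl2, Mst1r and Ceacam12 lay between 1.72 and 2.98 on all 4 arrays, below the array medians. Unadjusted p was 0.000322 for Cxcl2, the smallest of the higher genes, and its adjusted p was 1.0 (limma).

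Markers of other cell types were read to see what else the cultures could hold. Of 14 fibroblast genes, as of feeder cells, 13 were measured and lay between 1.87 and 4.73, with 9 lower and 4 higher in the knockout, 6 of the lower without overlap (1998 of all 18193 genes were), and a log2 summed level of 6.89 and 6.96 in controls and 6.85 and 6.76 in the knockout. Of 15 primitive endoderm genes 5 were lower and 10 higher. Their defining markers Gata4, Gata6, Sox7 and Sox17 lay between 2.34 and 3.86, and Lama1, a laminin gene that ESCs express too, was the widest at 7.08 and 6.31 in controls and 7.11 and 7.54 in the knockout. Of 14 trophoblast genes 10 were lower and 4 higher, with a median of −0.10. Among them the keratin gene Krt7 read 3.43 and 5.40 in controls and 4.64 and 2.83 in the knockout, while Cdx2, a defining factor of trophoblast, read 3.89 in both controls and 3.90 and 4.30 in the knockout. Medians of the difference were 0.10 for 9 primitive streak and mesoderm genes, −0.005 for 11 neural genes and −0.05 for 6 of 20 genes of the 2-cell-like state, whose highest value was 3.14. None of these lists had a gene past limma or the fold rule.

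Y-linked genes differed within the controls, and of 5 measured genes of X and Y chromosome state 0 passed limma. Eif2s3y, a translation initiation factor gene, read 8.93 and 5.87 in controls and 8.94 and 8.85 in the knockout, and Uty, a histone demethylase family gene, read 6.78 and 3.67 in controls and 6.04 and 6.11. Control array 2 was the low array in both. In PGCLCs the control sample numbered 2 was low as well, with Eif2s3y at 5.54 against 8.79 in control sample 1, and knockout sample 2 read 7.45. Kdm5d, also Y-linked, lay between 2.20 and 2.46 on all 4 ESC arrays. Xist, the RNA of the inactive X chromosome, read 5.74 and 4.89 in controls and 5.22 and 5.49 in the knockout on its brightest probe set and at most 2.35 on its other 2, and Tsix, its antisense RNA, read 3.62 and 3.49 in controls and 3.30 and 4.10. Overlapping sense and antisense transcripts are told apart on this array only by the strand of the probes.

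**Figure D5:**
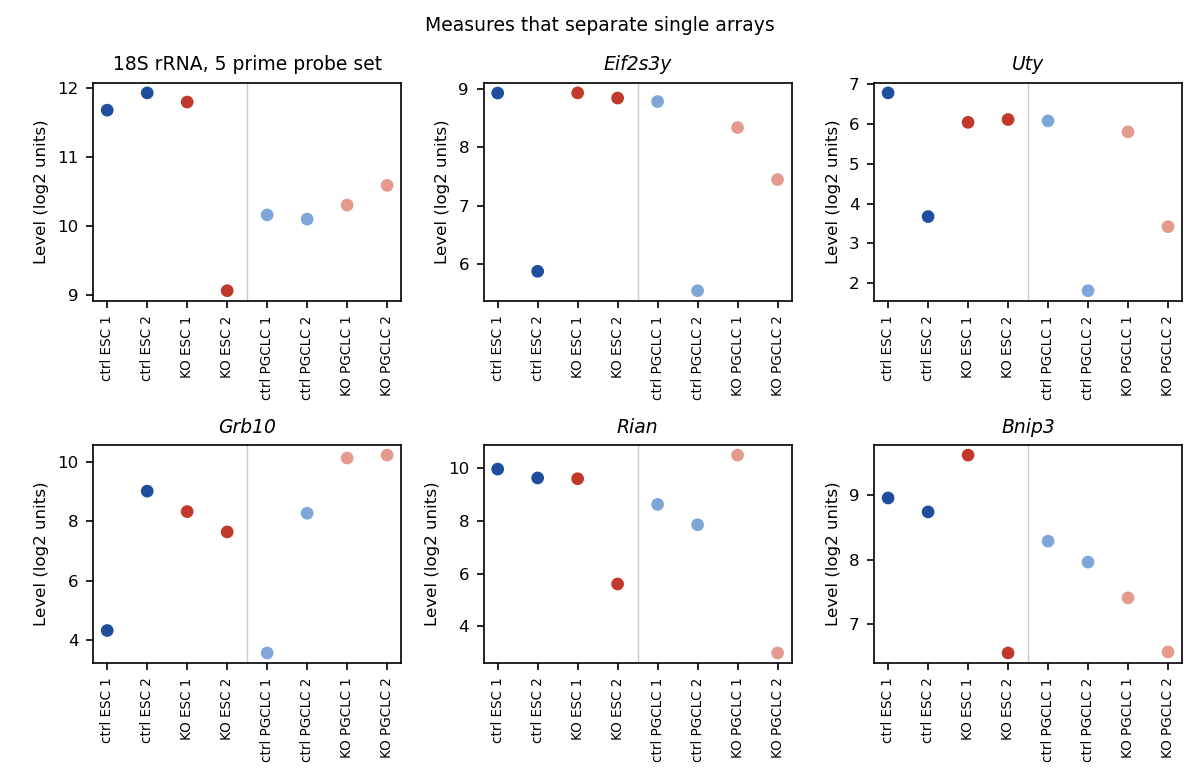
Level (log2 units, vertical axes with separate ranges) of the 5′ probe set of 18S ribosomal RNA and of Eif2s3y, Uty, Grb10, Rian and Bnip3 on the 4 ESC and the 4 PGCLC arrays, each dot 1 array, dark and light blue for controls and dark and light red for the knockout. Knockout ESC array 2 is lowest of the ESC arrays for 18S (9.06), Rian (5.61) and Bnip3 (6.56), control ESC array 2 for Eif2s3y (5.87) and Uty (3.67), and control ESC array 1 for Grb10 (4.31).

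The 24 genes were chosen by their ESC differences, on probe sets picked over all 8 arrays, and PGCLCs were made from these ESC lines, so that the PGCLC samples are not independent of the choice. In PGCLCs 22 of the 24 genes differed in the same direction in the mean, against 54.5% of all genes. Of the 24 genes 14 did so without overlap, against 27.5% of all genes. Both counts include Tfap2c, the gene targeted in both cell types. Of the 22 lower genes 8 were also lower by more than 1.5 in PGCLCs (0.890% of all genes). By limma 3 of the 24 passed there (3.09% of all genes did), all lower in the knockout. Rhox5 read 10.23 and 10.03 in control PGCLCs and 5.90 and 5.77 in the knockout (adjusted p = 0.00396, limma). Ak4 read 8.54 and 7.84 in controls and 4.29 and 3.5 in the knockout (adjusted p = 0.00705, limma), and AA467197 read 6.56 and 5.56 in controls and 2.88 and 2.72 (adjusted p = 0.0092, limma). Pnma5 and Tex13b did not pass in PGCLCs, with differences of −0.72 and 1.32. Tex13b read 2.57 and 2.09 in control PGCLCs and 4.98 and 2.32 in the knockout, so that only knockout sample 1 was high.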

How the data were processed

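RNA of ESCs and of sorted PGCLCs was measured by the study on Affymetrix GeneChip mouse expression arrays. The deposited table holds log2 values that the authors normalized across the 8 arrays, by RMA per the methods and by GCRMA per the submitters' processing notes, with no version named, and no probe intensities were used here. Quantile scaling in these methods gives all arrays nearly the same distribution, so that a change of total RNA would not be seen. Of 45101 probe sets 34945 name 1 gene, 932 several and 9160 none, and 64 are controls. Each of the 18193 genes was read from its probe set with the highest mean. limma 3.58.1 in R 4.3.3 was fitted to 4 groups of 2 arrays (4 residual and 3.67 prior degrees of freedom, eBayes with trend, two-sided, adjusted by Benjamini-Hochberg), and intervals are 95% and not adjusted. Counts and plots were made with Python 3.11.15, pandas 2.3.3, NumPy 2.4.6 and Matplotlib 3.10.9. The fit was also run on simulated data with independent normal spread and no array that stands apart. That run does not test a case like knockout array 2. Array data give no counts, so that precision rests on the number of arrays.

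The genes compared, the 24 lists and the rules were chosen with earlier results of these data known. Named were Tfap2c, all genes past the fold rule, the 5 genes each way with the smallest p without overlap, the 5 each way by which the knockout arrays differ most, the 4 members of each list with the largest difference and all members of the lists of stem cell identity. Genes named besides (Ldha, Slc2a3, Sycp3, Ddx4, Mael, Mageb16, Fgf5, Cdh1, Gata4, Gata6, Sox17 and Cxcr4) were chosen after their values were seen.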

Additional observations from a re-analysis of the deposited data

Results flagged for a closer look

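In limma's test of the interaction, 4 of the listed genes had a knockout difference unlike in PGCLCs and ESCs, at an adjusted p under 0.05. This test takes ESC and PGCLC arrays as independent, although the PGCLCs were made from these ESC lines. The share of all genes that pass this test is not given here, so that the 4 cannot be set against it. The difference of effects, PGCLCs minus ESCs on the log2 scale, was −5.25 for Rhox6 (SE 0.39, adjusted p = 0.00549), −4.98 for Rhox9 (SE 0.29, adjusted p = 0.00391) and 2.74 for Fgf4 (SE 0.32, adjusted p = 0.0321). In ESCs Rhox6 and Rhox9 lay between 2.70 and 4.07 in both genotypes, near the background. Fgf4, a growth factor gene of the early embryo, read 9.21 and 9.37 in control ESCs and 9.35 and 9.55 in Tfap2c-/- ESCs, and in PGCLCs it read 6.39 and 6.0 in controls and 8.78 and 9.41 in the knockout. For Cxcr4, a chemokine receptor gene of migrating germ cells, the difference of effects was −1.70 (SE 0.22, adjusted p = 0.047), and the gene read 2.92 and 2.85 in control ESCs and 2.56 and 2.71 in Tfap2c-/- ESCs, below the array medians, and 4.36 and 4.28 in control and 2.51 and 2.24 in Tfap2c-/- PGCLCs.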

How the results depend on the processing

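The count of genes past limma was 0 with all probe sets of a gene averaged, without probe sets liable to cross-hybridize, with a mean level of at least 5, with the 4 ESC arrays alone, without a trend and with the replicate number as a block (428 genes at an unadjusted p under 0.05). Leaving out an array gave 0 to 1 genes, the 1 being Rhox5 without either control, and the lone array left in a group was assumed to vary like the other groups. The labels do not say that a number marks a shared line. Same-numbered ESC arrays deviated from their group means in opposite ways (correlation −0.33 over genes, 0.39 in PGCLCs), and a block with crossed ESC numbers, chosen after seeing the data, called 5 genes. The fold rule passed 15 genes with the mean of probe sets (13 without overlap), 15 with a mean level of at least 5 (12 without overlap) and 71 at a threshold of 1 (47 without overlap). Leaving out an array gave 21 to 121 genes (20 to 120 without overlap), with 121 without knockout array 1, 87 without control array 1 and 21 without control array 2 or knockout array 2. Of the 24 genes 12 passed the rule without knockout array 2 and 14 without control array 2. The knockout arrays differed in 112 genes with the mean of probe sets, 113 with a mean level of at least 5 and 684 at a threshold of 1, where the control arrays differed in 55, 47 and 344. Tfap2c was −2.26 to −1.01 with an array left out and did not pass in these refits. Of the 31 other genes past the fold rule or with the smallest p, none reversed in 216 refits. For those without overlap, leaving out an array cannot reverse the direction. Other named genes did reverse, as Bnip3, whose difference of −0.76 was 0.77 without knockout array 2. List medians moved by more than the replicate spread in 41 of 144 refits. A median that stayed within that spread could still change sign. Without knockout array 2 the hypoxia median of −0.26 became 0.16, and the epithelial junction median of −0.29 became 0.02. The cause of these changes was not tested. With 2 arrays a group and levels near background for many genes, the absence of a call does not show an absence of a difference.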
